A study of Mus musculus with 4 samples.

Results

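The genes described here are 41 genes of DNA replication and mitosis, taken as every probe other than a control whose gene name in the scanner files is one of these 41, out of 34844 gene names on the array. They were carried by 55 probes, with 31 genes on 1 probe and 10 on several. The cells were mouse primary hepatocytes, the parenchymal cells of the liver, with the strain given as bl6. They were grown in DMEM medium with 10% fetal bovine serum and then moved overnight to 0.5% serum. Both groups had 5 µM simvastatin, a statin that blocks mevalonate synthesis, and 100 µM mevalonic acid, the intermediate whose synthesis the statin blocks. The control group had DMSO, the solvent, and the treated group had GW3965 at 1 µM, which activates the liver X receptors (LXR), the nuclear receptors that sense oxysterols. The treatment label, "LXR against GW3965", is taken as that agonist. Each group had 2 samples, called replicates a and b. The labels do not say whether a letter stands for an animal, an isolation or a culture, so the p-values below measure the spread between these samples only, which may be technical.

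Proliferating cells enter the cycle when D-type and E-type cyclins release E2F transcription factors, which switch on the genes of DNA synthesis. Licensing factors then load the MCM helicase on replication origins. Later, factors such as Foxm1 drive the genes of the spindle, the centromere and the checkpoint that holds back anaphase. B-type cyclins with Cdk1 trigger mitosis. Hepatocytes of the adult liver are mostly quiescent and can re-enter the cycle after loss of liver tissue. In culture, serum and growth factors can bring them into the cycle.

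A single slide carried the 4 arrays, scanned together, with replicate a of both groups at positions 1 and 2 and replicate b at positions 3 and 4, so the letter and the place on the slide cannot be told apart. Between 62.45% and 69.10% of 55681 probes were well above background, with the highest share on GW3965 replicate b, and 0 spots were saturated. All levels below are log2 signals relative to the 75th percentile of the same array, so a level of 0 equals that percentile and a difference of 1 is a doubling. As a check of the treatment labels, Abca1, the cholesterol exporter that liver X receptors induce, read 1.46 and 0.55 with DMSO and 3.31 and 3.85 with GW3965, in the order a and b. The difference was 2.58 ± 0.39 (SE), or 5.96-fold, with adjusted p = 1 in limma. All 17 hepatocyte markers listed, among them Apoa1 and Fgb, were well above background on all 4 arrays. Markers of other liver cells were detected too, as given below.

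Of the 41 genes, 36 were well above background on all 4 arrays. Aurkb, a kinase of the chromosomal passenger complex, and Cenpf, a kinetochore protein, were not well above background on any array. Ccne2, an E-type cyclin, was above it on GW3965 replicate b alone. Bub1, a kinase of the spindle checkpoint, and Kif11, the motor that separates the spindle poles, were above it on both b arrays and on neither a array.

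The promoters of several of these genes are printed first, because the genes that differed most between the replicates belong to classes known for shared promoter motifs. Genes of mitosis are known for CCAAT boxes and for the cell cycle homology region (CHR), which the DREAM and MuvB complexes bind, and genes of DNA synthesis for E2F sites. The 250 bases before the annotated start were taken from RefSeq (GRCm38.p6), and 31 of the 41 genes matched, with 33 promoters. Both strands were searched for CCAAT, for TTTGAA (the CHR) and for E2F strings, and the matches are in capitals. The E2F strings had 4 forms, of which the first was TTCCCGC, the second was TTGGCGC, the third was TTCGCGC and the last was TTGCCGC. The genes shown are the marker genes Top2a, Mki67, Cdk1, Ccnb1, Mcm2 and Pcna, with Bub1, which was well above background in replicate b alone, and Cenpa, whose difference between the replicates was nearest 0.
Top2a, chr11:99024190-99024439, minus strand: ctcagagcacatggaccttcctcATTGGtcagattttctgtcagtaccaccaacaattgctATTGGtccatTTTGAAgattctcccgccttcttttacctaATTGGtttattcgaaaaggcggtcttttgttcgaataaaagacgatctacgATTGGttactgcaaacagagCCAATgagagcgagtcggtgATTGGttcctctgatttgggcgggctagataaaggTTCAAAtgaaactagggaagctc
Mki67, chr7:135716380-135716629, minus strand: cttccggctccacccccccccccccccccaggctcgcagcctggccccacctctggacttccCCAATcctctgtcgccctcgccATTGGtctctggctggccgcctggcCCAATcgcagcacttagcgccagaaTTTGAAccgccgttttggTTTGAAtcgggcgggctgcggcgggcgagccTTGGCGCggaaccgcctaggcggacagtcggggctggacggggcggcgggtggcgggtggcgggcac
Cdk1, chr10:69352913-69353162, minus strand: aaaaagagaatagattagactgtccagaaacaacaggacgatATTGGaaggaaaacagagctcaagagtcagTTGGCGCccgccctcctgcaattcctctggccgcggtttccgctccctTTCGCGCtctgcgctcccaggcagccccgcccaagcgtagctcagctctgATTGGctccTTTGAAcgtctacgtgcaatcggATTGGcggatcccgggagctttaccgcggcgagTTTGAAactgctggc
Ccnb1, chr13:100786487-100786736, minus strand: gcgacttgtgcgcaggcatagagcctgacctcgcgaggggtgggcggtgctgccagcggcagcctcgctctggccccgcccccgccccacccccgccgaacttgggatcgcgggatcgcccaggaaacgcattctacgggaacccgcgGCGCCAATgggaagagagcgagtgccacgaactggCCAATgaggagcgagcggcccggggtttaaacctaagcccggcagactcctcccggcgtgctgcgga
Mcm2, chr6:88898781-88899030, minus strand: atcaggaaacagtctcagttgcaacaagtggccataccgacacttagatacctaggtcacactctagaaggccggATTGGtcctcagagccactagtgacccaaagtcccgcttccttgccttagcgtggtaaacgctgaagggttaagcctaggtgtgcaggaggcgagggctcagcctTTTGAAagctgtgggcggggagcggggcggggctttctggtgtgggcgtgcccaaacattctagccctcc
Pcna, chr2:132253181-132253430, minus strand: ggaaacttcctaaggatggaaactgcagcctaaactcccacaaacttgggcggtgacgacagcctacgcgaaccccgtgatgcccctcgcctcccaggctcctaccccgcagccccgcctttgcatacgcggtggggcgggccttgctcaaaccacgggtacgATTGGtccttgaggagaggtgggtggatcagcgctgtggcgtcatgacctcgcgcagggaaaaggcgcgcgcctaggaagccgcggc
Bub1, chr2:127831860-127832109, minus strand: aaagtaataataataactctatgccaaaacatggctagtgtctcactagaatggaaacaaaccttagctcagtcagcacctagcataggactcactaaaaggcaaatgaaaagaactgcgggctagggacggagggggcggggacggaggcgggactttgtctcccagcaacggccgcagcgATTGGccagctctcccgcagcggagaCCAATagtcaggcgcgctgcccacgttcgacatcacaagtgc
Cenpa, chr5:30666636-30666885, plus strand: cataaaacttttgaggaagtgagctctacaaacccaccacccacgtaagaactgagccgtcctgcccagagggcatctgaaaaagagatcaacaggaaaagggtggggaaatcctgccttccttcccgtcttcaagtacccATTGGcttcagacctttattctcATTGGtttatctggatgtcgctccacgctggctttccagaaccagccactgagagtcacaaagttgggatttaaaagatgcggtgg
The Top2a promoter holds 6 CCAAT boxes and 2 CHR strings, and the Cdk1 promoter holds 3 CCAAT boxes, 2 CHR strings and 2 E2F strings. The promoters of Nusap1, Birc5, Cdt1 and Tk1, not printed, hold none of these strings, although these genes passed as higher in b. Those of Ccne1, E2f1 and Tyms, which did not pass, hold none either. In the Ccnb1 promoter the E2F string overlaps a CCAAT box, and this was the only such overlap among the 10 member promoters with an E2F string. CCAAT was found in 75.8% of the members' promoters and in 33.8% of all 32851 promoters of the same length. The E2F strings were found in 30.3% against 7.89%, and TTTGAA in 24.2% against 16.0%. A match describes the letters in this window and does not show a site that is bound.

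Replicate b had higher levels of most of these genes than replicate a, in the DMSO pair and in the GW3965 pair alike. In limma, 27 of the 38 genes tested rose in b and 0 fell, at an adjusted p under 0.05. The background is large, since 24.5% of all 25147 genes tested passed, 14.4% higher and 10.1% lower. The higher genes made up 58.85% of all calls, 40.89% with each array centred on its median and 85.42% with scaling to the spike-in controls. The median difference over the 38 genes was 0.83, against 0.08 over all genes tested, with 0.85 between the DMSO arrays and 0.78 between the GW3965 arrays. Both b arrays lay above both a arrays for 35 of the 38 genes, against 39.9% of all genes, and 15 were at least 2-fold higher, against 4.04%. The 38 include Bub1 and Kif11, which passed the filter on low signals only through the b arrays and so had to differ. Without these, 25 of 36 rose, with a median of 0.80, and 13 were at least 2-fold higher. Each letter holds 1 DMSO and 1 GW3965 array, and the model has no treatment term. The spread behind these p-values is thus that between the treatments within a letter. The spread between independent samples of a letter was not measured. The count was 17 without DMSO replicate b, where Aurka, Bub1b, Cdk1, Foxm1, Kif11, Mcm4, Mcm5, Prc1, Rrm1 and Tk1 no longer passed. With no filter on low signals it was 16, and these genes and Ccnb1 no longer passed. With normexp background correction Top2a, Ccna2, Nusap1, Ccnb1, Bub1, Bub1b and Foxm1 still passed, with smaller rises of 1.05, 1.13, 0.61, 0.52, 0.51, 0.46 and 0.43. The medians of the members and of all genes were 0.71 and -0.05 with median centring and 1.12 and 0.36 with scaling to the spike-in controls.

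**Figure D1:**
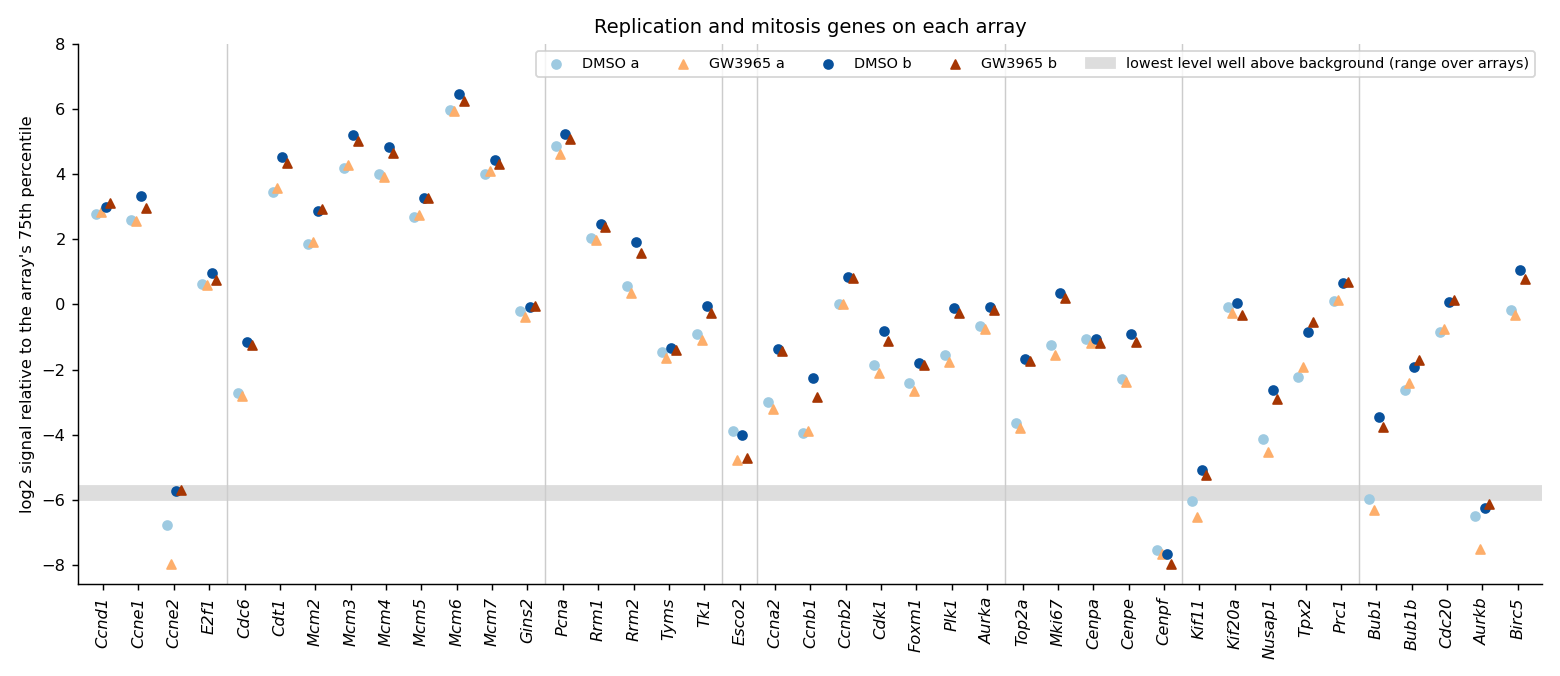
Level of each of the 41 genes on each of the 4 arrays (y axis, log2 signal relative to the array's 75th percentile; circles DMSO, triangles GW3965; light colours replicate a, dark colours replicate b), ordered by role with vertical lines between roles. For 35 of 38 genes tested both dark points lie above both light points, and the grey band marks the lowest levels well above background, -6.00 to -5.57.

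Among the genes of the G1 phase and its exit, 0 of 3 tested passed, although both b arrays were above both a arrays in each. Ccne1 did pass in 7 other settings (adjusted p from 0.00274 to 0.0468), with normexp correction, only probes detected on all 4 arrays, the mean of its probes, an intensity trend, a robust prior, the treatment as a term or scaling to the spike-in controls, and without GW3965 replicate b (adjusted p = 0.0493). Ccnd1, the D-type cyclin that responds to growth factors, read 2.77 on DMSO a, 2.85 on GW3965 a, 2.98 on DMSO b and 3.12 on GW3965 b. The difference was 0.24 ± 0.12 (SE; adjusted p = 0.18). Ccne1, the E-type cyclin that starts S phase, read 2.60, 2.56, 3.33 and 2.95 in the same order. The letters did not overlap, and the difference of 0.57 ± 0.16 lay just outside the threshold (adjusted p = 0.0501). E2f1, an activating E2F factor, read 0.61, 0.58, 0.96 and 0.75, a difference of 0.25 ± 0.12 (adjusted p = 0.19). Ccne2 read -6.78, -7.97, -5.72 and -5.70, at or under background on 3 of the arrays, so no fold is given for it.

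The genes of replication licensing and the helicase rose in 6 of 9 cases, with a median difference of 0.78, and in all 9 the b arrays were above the a arrays. Cdc6, the factor that loads the MCM helicase on origins, read -2.72 on DMSO a, -2.82 on GW3965 a, -1.16 on DMSO b and -1.24 on GW3965 b. That was a rise of 1.57 ± 0.11, or 2.96-fold (adjusted p = 0.00158). Its partner in loading, Cdt1, read 3.47, 3.57, 4.54 and 4.33, a rise of 0.91 ± 0.13 (adjusted p = 0.00769). For both factors the DMSO and GW3965 arrays of a letter were closer to each other than to those of the other letter. A call between the letters largely requires this.

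The 6 subunits of the MCM helicase, which unwinds DNA at the fork, gave differences from 0.32 to 1.00. Mcm2 read 1.85 on DMSO a, 1.92 on GW3965 a, 2.86 on DMSO b and 2.93 on GW3965 b, a rise of 1.00 ± 0.11 (2.01-fold; adjusted p = 0.00428). Mcm4 read 4.001, 3.92, 4.84 and 4.66, a rise of 0.78, while Mcm3 rose by 0.87 and Mcm5 by 0.56. Mcm5 also missed the threshold without DMSO replicate a or GW3965 replicate b (adjusted p of 0.064 and 0.074). Mcm6 read 5.98, 5.96, 6.47 and 6.24, which gave 0.38 ± 0.13 (adjusted p = 0.082), and Mcm7 gave 0.32 ± 0.12 (adjusted p = 0.098), though both passed with normexp correction or an intensity trend. Gins2, a subunit of the GINS complex that travels with the helicase, gave 0.23 ± 0.12 (adjusted p = 0.23). Whether the subunits differ from each other was not tested.

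Of the genes of nucleotide supply and the replication fork, 3 of 5 rose, with a median difference of 0.43. Rrm2, the regulated subunit of ribonucleotide reductase, read 0.57 on DMSO a, 0.34 on GW3965 a, 1.91 on DMSO b and 1.58 on GW3965 b. It rose by 1.29 ± 0.16, or 2.44-fold (adjusted p = 0.00557). The large subunit Rrm1 rose by 0.42 ± 0.11 (adjusted p = 0.047), close to the threshold. Its call was lost with median centring, no filter, each probe on its own, the treatment as a term and scaling to the spike-in controls (adjusted p from 0.056 to 0.15), and with any 1 array left out (0.097 to 0.17). Tk1, the thymidine kinase of S phase, read -0.91, -1.11, -0.06 and -0.26, a rise of 0.85 ± 0.14 (adjusted p = 0.011). Pcna, the sliding clamp of DNA polymerases, read 4.85, 4.63, 5.25 and 5.09. The Pcna arrays did not overlap, but the difference of 0.43 ± 0.13 did not pass (adjusted p = 0.070), except with normexp correction, an intensity trend or only probes detected on all 4 arrays. Tyms, which makes thymidylate, gave 0.18 ± 0.13 (adjusted p = 0.34).

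All 7 genes of mitotic entry rose in b, with a median difference of 1.01. Ccna2, the cyclin of S and G2 phases, read -3.01 on DMSO a, -3.23 on GW3965 a, -1.36 on DMSO b and -1.42 on GW3965 b, a rise of 1.73 ± 0.13 or 3.32-fold (adjusted p = 0.00158). Plk1, a kinase of mitotic entry, read -1.54, -1.78, -0.10 and -0.27, a rise of 1.47 ± 0.14 (adjusted p = 0.00273). In both genes the arrays of a letter lay close together and the letters lay far apart, as a call between the letters largely requires.

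Cdk1, the kinase that triggers mitosis, read -1.86 on DMSO a, -2.11 on GW3965 a, -0.83 on DMSO b and -1.12 on GW3965 b. It rose by 1.01 ± 0.16 (2.02-fold; adjusted p = 0.010), and its other probes gave 0.32 and 1.24. Ccnb1, the cyclin partner of Cdk1, read -3.94, -3.89, -2.26 and -2.83, a rise of 1.36 ± 0.20 (adjusted p = 0.00896), with 1.68 between the DMSO arrays and 1.05 between the GW3965 arrays. The other B-type cyclin Ccnb2 rose by 0.82, the transcription factor Foxm1 by 0.71 and the centrosome kinase Aurka by 0.59. Aurka no longer passed with median centring or no filter (adjusted p of 0.052 and 0.076), or without GW3965 a, DMSO b or GW3965 b (0.067 to 0.078). Foxm1 no longer passed without GW3965 replicate b either (adjusted p = 0.071).

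Of the genes of chromosome structure and the centromere, 3 of 4 rose. Top2a, the topoisomerase that untangles sister chromatids, was measured by a probe at chr11:98855522-98855581 on mm9, the build of the file headers. It read -3.66 on DMSO a, -3.80 on GW3965 a, -1.67 on DMSO b and -1.73 on GW3965 b. It rose by 2.03 ± 0.12, or 4.07-fold (adjusted p = 0.00117). Mki67, the proliferation antigen that coats mitotic chromosomes, read -1.23, -1.55, 0.36 and 0.20, a rise of 1.67 ± 0.15 (3.18-fold; adjusted p = 0.00245). A second Mki67 probe gave 2.14. Cenpe, a kinetochore motor, read -2.29, -2.39, -0.89 and -1.15, a rise of 1.32 ± 0.14 (adjusted p = 0.00339). Cenpa, the histone H3 variant of centromeres, did not pass. It read -1.05, -1.18, -1.06 and -1.17, so that the arrays of both letters overlapped and the difference was -0.00 ± 0.12 (adjusted p = 0.997).

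Spindle proteins and motors rose in 4 of 5 cases. The 4 include Kif11, which passed the filter only through the b arrays and so had to differ. Nusap1, a microtubule-binding protein of the spindle, read -4.14 on DMSO a, -4.53 on GW3965 a, -2.62 on DMSO b and -2.90 on GW3965 b, a rise of 1.57 ± 0.18 (2.98-fold; adjusted p = 0.00463). Tpx2, which activates Aurora A at the spindle, read -2.24, -1.93, -0.85 and -0.54, a rise of 1.39 ± 0.17 (adjusted p = 0.00530), while a dimmer Tpx2 probe gave 0.20 and the mean of both gave 0.79. Prc1, which bundles the microtubules of the midzone, rose by 0.56 ± 0.11, but missed the threshold without DMSO replicate a, DMSO replicate b or GW3965 replicate b (adjusted p from 0.061 to 0.077). Kif11 read -6.03, -6.52, -5.09 and -5.23. Set against the lowest level above background it was 1.37-fold higher in b, which is not a lower limit. The adjusted p of 0.013 in limma does not test this fold. It belongs to the difference of 1.12 that uses the a signals under background. With normexp background correction Kif11 differed by -0.0030. It also missed the threshold with quantile normalization and without DMSO b or GW3965 b (adjusted p from 0.061 to 0.078). Kif20a, a motor of cytokinesis, read -0.07, -0.26, 0.06 and -0.33, with overlapping letters and a difference of 0.03 ± 0.17 (adjusted p = 0.92).

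The genes of the spindle checkpoint and anaphase that were tested all rose, 4 of 4. The 4 include Bub1, which passed the filter only through the b arrays and so had to differ. Bub1 read -5.98 on DMSO a, -6.31 on GW3965 a, -3.47 on DMSO b and -3.76 on GW3965 b. The a arrays were not well above background. Against the lowest level above background Bub1 was 3.97-fold higher in b, which is not a lower limit, and the rise was smaller with normexp correction. The adjusted p of 0.00137 in limma does not test this fold. It belongs to the difference of 2.53 that uses the a signals under background. Birc5, the survivin subunit of the passenger complex, read -0.17, -0.33, 1.06 and 0.78, a rise of 1.17 ± 0.14 (2.25-fold; adjusted p = 0.00546). Cdc20, the activator of the anaphase-promoting complex, read -0.83, -0.74, 0.08 and 0.13, a rise of 0.89 ± 0.11 (adjusted p = 0.00575). Bub1b, the BubR1 checkpoint kinase, read -2.63, -2.43, -1.92 and -1.72, a rise of 0.71 ± 0.14 (adjusted p = 0.019) that missed the threshold without GW3965 replicate b (adjusted p = 0.090). In all 4 genes the DMSO and GW3965 arrays of a letter were closer to each other than to the arrays of the other letter. This follows largely from the calls, and for Bub1 also from the filter.

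Esco2, the acetyltransferase that establishes sister chromatid cohesion, did not pass between the letters. The difference was -0.03 ± 0.35 (adjusted p = 0.96), -0.13 between the DMSO arrays and 0.07 between the GW3965 arrays. The 14 probes of these genes that were not chosen for the fit were higher in b in both groups, 14 of 14. Of these, 8 were well above background on all arrays. They read the same genes again. Over all 25147 genes tested, 14649 were higher in b between the DMSO arrays and 13884 between the GW3965 arrays.

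**Figure D2:**
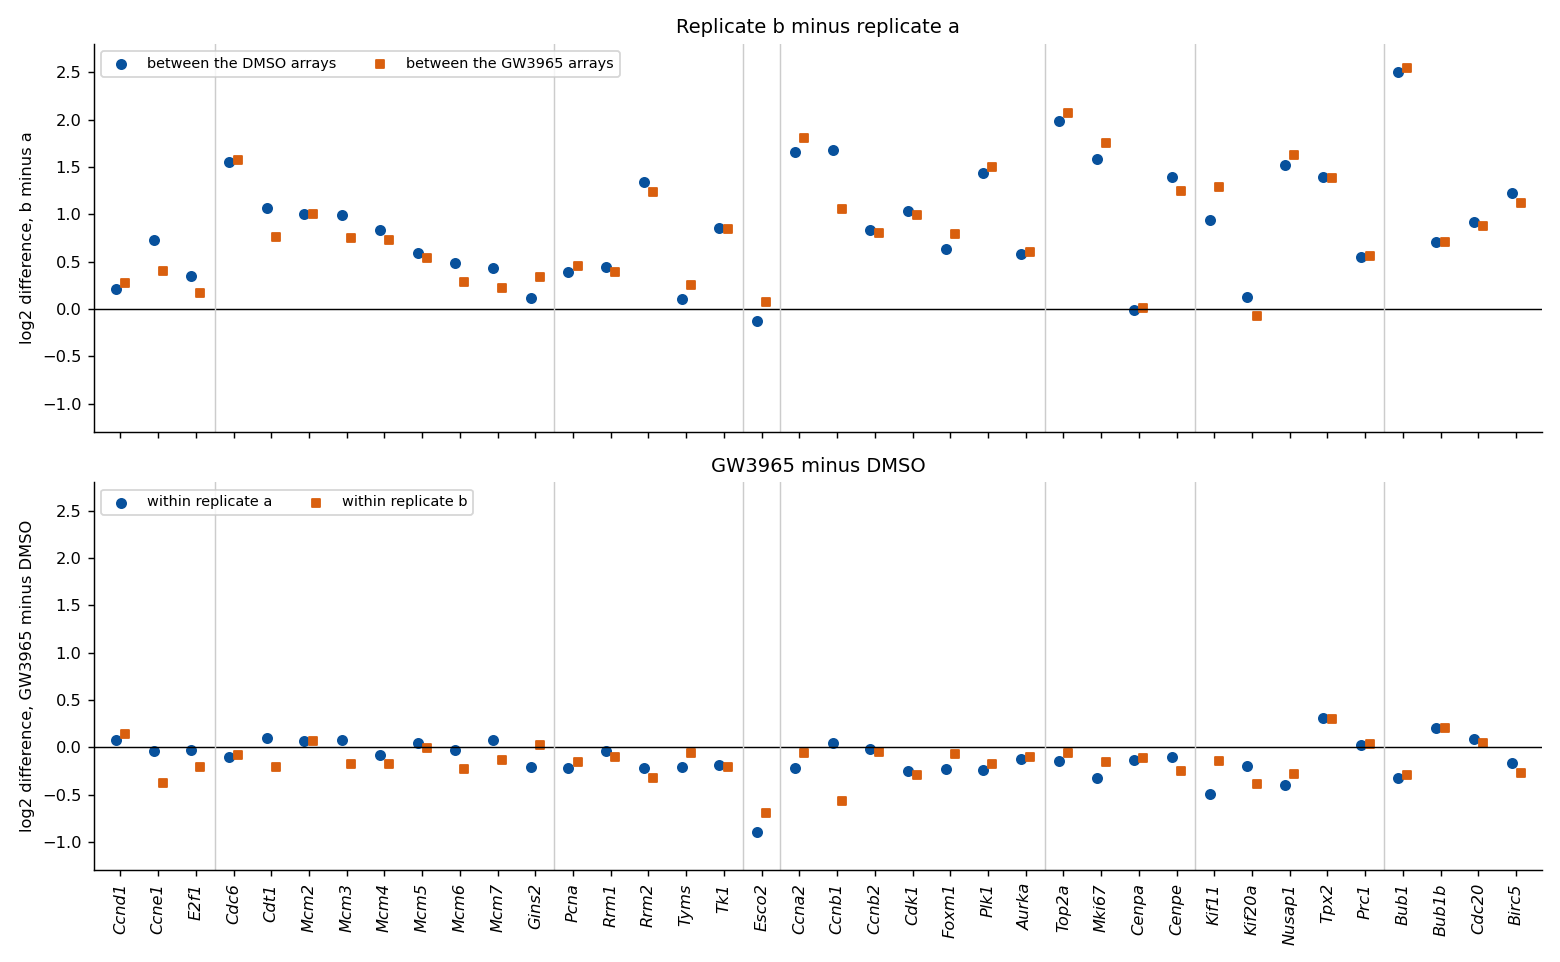
Differences in log2 level for the 38 genes tested, replicate b minus a (upper panel; circles between the DMSO arrays, squares between the GW3965 arrays) and GW3965 minus DMSO (lower panel; circles within replicate a, squares within replicate b), ordered by role. The upper points reach 2.07 for Top2a, and 2.54 for Bub1, whose a arrays were not above background, and stay near 0 for Esco2, Cenpa and Kif20a, while most lower points lie close to 0 and Esco2 reads -0.90 and -0.70.

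Seen beside the promoters, TTTGAA was in 33.3% of the 24 promoters of genes that passed the threshold in b, beside 16.0% of all promoters. It was in 0 of the 9 promoters of the 8 other members. These include Cenpf, which was not tested, and Ccne1, E2f1, Mcm6, Mcm7, Pcna and Tyms, whose b arrays lay above the a arrays. The 24 include those of Bub1 and Kif11, which passed the filter only through b. The split rests on few promoters and was not tested. CCAAT was in 79.2% of the 24 and 66.7% of the 9 promoters, and the E2F strings in 29.2% and 33.3%. The Cenpa promoter holds 2 CCAAT boxes, the same number as that of Bub1.

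The other genes of the pathway, in lists that do not hold these 41, were read in the same fit. Over all genes tested, 14.4% passed as higher in b and 10.1% as lower. Of 45 other replication genes, 17 rose in b and 0 fell (median 0.42), among them Orc2, a subunit of the origin recognition complex, by 0.98. Of 50 other mitosis genes tested, 35 rose and 1 fell (median 0.71). These include Nuf2, Kif2c, Kif15 and Ckap2l, which passed the filter only through the b arrays and so had to rise, and without these 31 of 46 rose (median 0.68). Aspm, a spindle pole protein, rose by 1.66. Other G1 and E2F genes rose in 7 of 21 cases with 0 falls (median 0.38). Ccnd2, a D-type cyclin, rose by 1.66 ± 0.11 (3.16-fold; adjusted p = 0.00135), and Mybl2, which works with the MuvB complex, rose by 0.94.

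Genes that restrain the cycle or act in its checkpoints rose in 3 of 22 cases and fell in 1 (median 0.18). These shares, 13.6% and 4.55%, were not above the 14.4% and 10.1% of all genes. Btg2, an antiproliferative gene, fell by 0.75, and Fbxo5, an inhibitor of the anaphase-promoting complex, rose by 0.97. Of 17 mitogen response and hepatocyte growth genes, 4 rose and 4 fell (23.5% each, median -0.02). Areg, a ligand of the EGF receptor, read -0.45 on DMSO a, 0.19 on GW3965 a, 2.27 on DMSO b and 2.13 on GW3965 b, a rise of 2.33 ± 0.22 (adjusted p = 0.00284). Its receptor Egfr moved the other way, at 5.25, 5.35, 4.09 and 3.97, a fall of 1.27 ± 0.12 (adjusted p = 0.00267). The chemokine gene Ccl2 fell by 1.44.

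Markers of cell types differed between the letters as well, where 14.4% of all genes passed as higher in b and 10.1% as lower. Hepatocyte markers fell in b in 14 of 17 cases and rose in 0 (median -0.87), with mean levels of 4.58 and 4.57 on the a arrays and 3.67 and 3.63 on the b arrays. Fgb, the fibrinogen beta chain, changed most, by -2.39 ± 0.13 (adjusted p = 0.00110), and Hnf4a, a hepatocyte transcription factor, fell by 1.49. Endothelial markers rose in 10 of 14 cases and fell in 0 (median 0.70), with mean levels of 0.76 and 0.86 on the a arrays and 1.54 and 1.65 on the b arrays, and Vwf rose by 1.64. Macrophage and leukocyte markers fell in 9 of 14 cases and rose in 0 (median -0.67), with mean levels of 0.15 and 0.23 against -0.58 and -0.66.

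Of 14 stellate cell and fibroblast markers, 7 rose and 3 fell (median 0.43), and without Lrat, which was above background only in b, 6 of 13 rose (median 0.35). Over all 14 markers the mean levels were 0.25 and 0.23 on the a arrays and 0.49 and 0.53 on the b arrays. Lrat is part of these means and adds to their rise, at -6.86 and -7.77 on the a arrays and -4.87 and -5.25 on the b arrays. Acta2, a smooth muscle actin, rose by 1.70, and Dcn, which encodes decorin, fell by 1.28. Of 9 cholangiocyte markers, 4 rose and 1 fell (median 0.12), and without Krt7, also above background only in b, 3 of 8 rose (median 0.08). Over all 9 markers the mean levels went from -1.82 and -1.95 to -1.01 and -0.9995. Krt7 is part of these means and adds to their rise, at -6.04 and -7.59 on the a arrays and -2.67 and -2.55 on the b arrays. Krt19, a biliary keratin, was higher by 2.53. Of 8 lymphocyte markers tested, 4 fell and 0 rose, or 3 of 7 without Cd3d, which was above background only in a. Their mean levels over 10 markers were -2.13 and -2.16 against -2.99 and -2.49, and Klrb1c was not well above background on any array. The part of these cell types in the difference between the letters was not tested, and in such bulk RNA fewer cells of a type and less RNA per cell cannot be told apart.

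**Figure D3:**
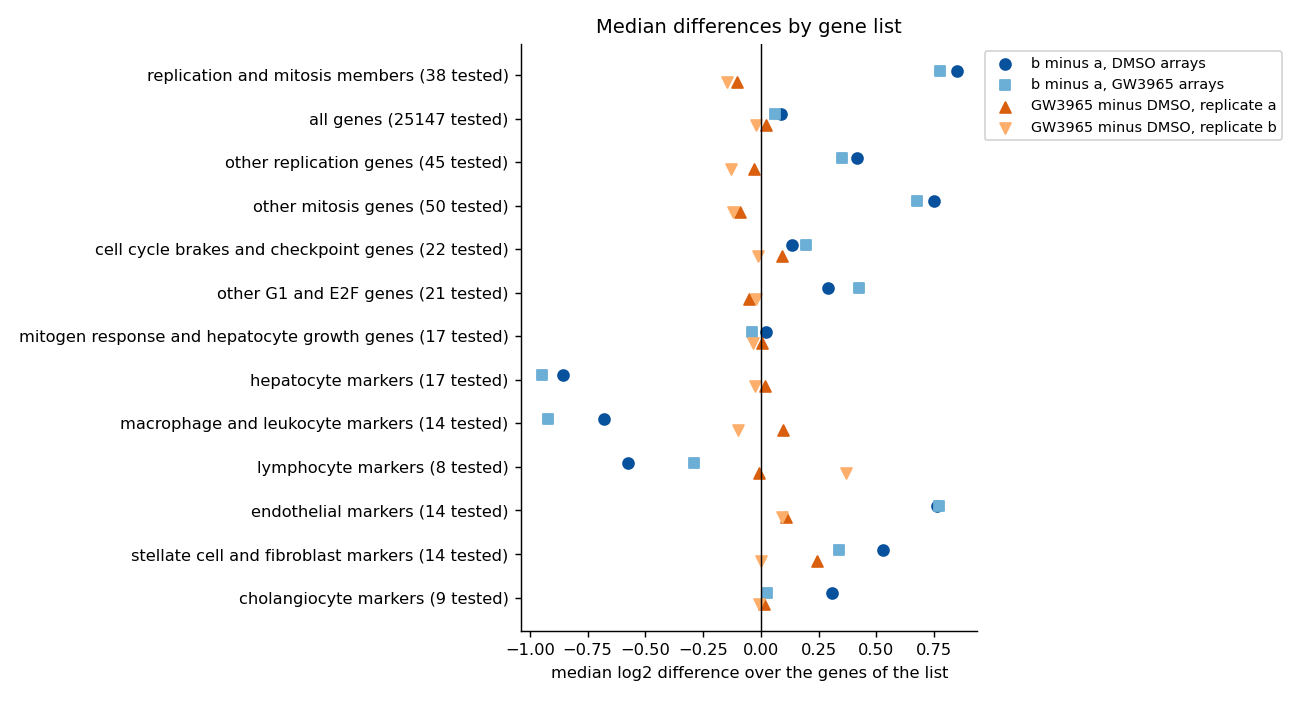
Median log2 difference over the genes of each list (x axis), replicate b minus a between the DMSO arrays (dark circles) and between the GW3965 arrays (light squares), and GW3965 minus DMSO within replicate a (upward triangles) and b (downward triangles); the counts beside the names are the genes tested between the letters. The members (0.85 and 0.78) and the other mitosis genes lie right of the other cell cycle lists, hepatocyte markers lie far left of 0, and the medians for GW3965 are nearer 0 than those between the letters in most lists.

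For GW3965 against DMSO, 0 of the 36 genes that could be tested passed an adjusted p under 0.05 in limma, as did 0 of all 24637 genes tested (0%). At an unadjusted p under 0.05, 1 of the 36 genes and 203 of all genes (0.824%) passed. The genes were lower with GW3965 in 29 cases and higher in 7, against 51.5% of all genes lower. But 23 of the 36 were higher under scaling to the spike-in controls. Relative to the 75th percentile, these controls read 3.19 on DMSO a, 3.29 on GW3965 a, 3.17 on DMSO b and 2.72 on GW3965 b. The median difference was -0.13 (-0.10 in replicate a and -0.14 in replicate b), against -0.01 over all genes, and turned to 0.05 with that scaling. Within both letters 24 genes were lower and 6 were higher. Of all 24637 genes, 12287 had the same direction in both letters, and how many of these were lower was not counted. Each treatment holds an a and a b array, which lie far apart for these genes. Leaving 1 array out thus moved the median difference between -0.46 (DMSO a left out) and 0.31 (DMSO b left out). The counts turned with it, to 31 higher without DMSO b and 30 higher without GW3965 a, and to 35 lower without DMSO a and 36 lower without GW3965 b. The mean level over the 36 genes was -0.03 on DMSO a, -0.13 on GW3965 a, 0.82 on DMSO b and 0.68 on GW3965 b.

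**Figure D4:**
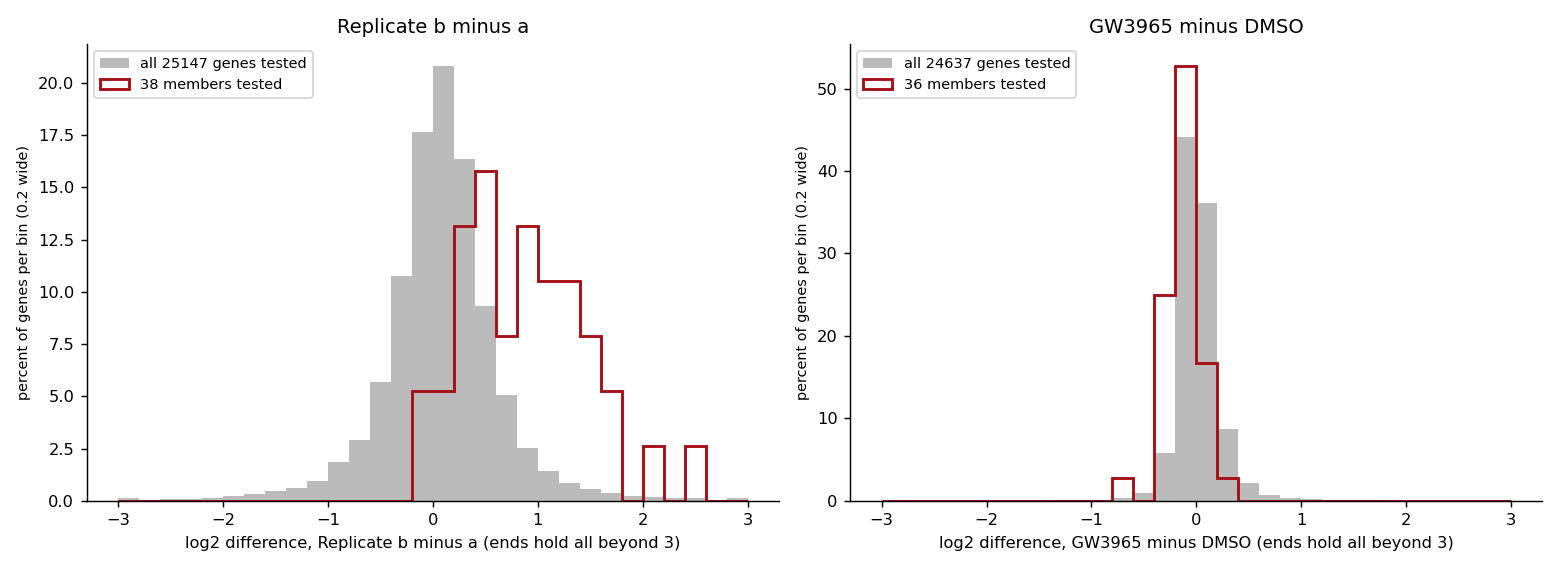
Share of genes (y axis, percent per bin 0.2 wide) at each log2 difference (x axis), for all genes tested (grey) and for the replication and mitosis genes (red line), replicate b minus a on the left and GW3965 minus DMSO on the right. On the left the members' median is 0.83 against 0.08 for all genes, and on the right it is -0.13 against -0.01; the 2 panels have different y scales.

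Esco2, whose probe lies at chr14:66438198-66438257 on mm9, was the gene with an unadjusted p under 0.05. It read -3.88 on DMSO a, -4.01 on DMSO b, -4.78 on GW3965 a and -4.71 on GW3965 b, so the treatments did not overlap, as for 6.55% of all genes in the lower direction. The difference was -0.80 ± 0.19 (adjusted p = 1 in limma), -0.90 in replicate a and -0.70 in replicate b. With normexp background correction it was -0.25. An exact permutation test of 2 arrays against 2 cannot go below 0.333 (two-sided).

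Kif20a and Cenpa were the other 2 genes whose arrays did not overlap between the treatments, both lower. Kif20a read -0.07 and 0.06 with DMSO and -0.26 and -0.33 with GW3965, a difference of -0.29 ± 0.19 (adjusted p = 1). Cenpa read -1.05 and -1.06 with DMSO and -1.18 and -1.17 with GW3965, a difference of -0.12 ± 0.18 (adjusted p = 1), which became 0.05 under scaling to the spike-in controls. These 3 genes are also the 3 whose arrays overlapped between the letters.

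The rest of the genes tested were separated between the letters and so had to overlap between the treatments. Mki67 gave -0.24 ± 0.79, Cdk1 -0.27 ± 0.50, Ccnb1 -0.26 ± 0.67 and Pcna -0.19 ± 0.27. Top2a gave -0.10 ± 0.95, which turned to 0.08 under scaling to the spike-in controls. Ccnd1 gave 0.11 ± 0.21 and Mcm2 0.07 ± 0.50. The largest positive difference was that of Tpx2, 0.31 ± 0.66, with 0.31 in replicate a and 0.30 in replicate b. The model has no replicate term, so the difference between the letters enters these SEs. The other cell cycle lists had 0 genes called for GW3965. The smallest p among them was that of Trp53, the p53 tumour suppressor gene, which read 0.92 and 0.96 with DMSO and 1.30 and 1.54 with GW3965, a difference of 0.48 ± 0.20 (adjusted p = 1).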

How the data were processed

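RNA was measured on 4 single-colour Agilent arrays of design 028005, 2 per group. Per the file headers, the deposited values are spot intensities on a linear scale from Agilent Feature Extraction 10.7.3.1, already corrected for background, whereas version 11.5.1.11 is named in the submitters' processing notes. The intensities in the authors' value table were the same (maximum difference 0). For earlier steps, tools were not given in the sources used here.

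Spots marked as outliers were left out, spots of a probe were averaged on the log2 scale, and each array's 75th percentile over all probes other than controls was subtracted. Gene names came from RefSeq for 26762 probes and from the files for 28919. Probes were required to be well above background in both samples of either group, or of either replicate letter when letters were compared, and the probe with the highest mean stood for its gene. Group and letter were each fitted with limma 3.58.1 (R 4.3.3, with data.table at version 1.17.8), two-sided, with no block, and with Benjamini-Hochberg adjustment over all genes and a threshold of 0.05. The fits were tested on simulated data. Where both arrays of a letter were not well above background, a fold is set against the lowest level above background on each array. The probe's own signal was used where higher. Some probes not well above background lay above that level, so such a fold is not a lower limit. Errors are SEs from the model. The number of arrays limits the precision.

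The members and the gene lists were chosen with earlier results of these data known. Values on every array are given for up to 3 members per role with the largest differences between the letters and up to 3 with the largest between the treatments, and for Mki67, Top2a, Pcna, Ccnd1, Cdk1, Ccnb1 and Mcm2. In each other list up to 3 genes with the smallest p in either comparison could be named, and some of these are. The alternatives were other scalings, the normexp correction (offset 50), the authors' table of values, other filters, other rules for several probes, an intensity trend or robust prior, an adjusted p under 0.1, the letter or treatment as a term, and each array left out. Scaling to 8 spike-in controls was added after seeing the data. Figures were drawn with matplotlib 3.10.9 and tables with pandas 2.3.3.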

Additional observations from a re-analysis of the deposited data

Results flagged for a closer look

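The difference between replicates b and a had opposite signs in the DMSO and GW3965 arrays for 3 of the genes, and this difference between the groups was not tested. For Esco2, b minus a was -0.1312 with DMSO and 0.07 with GW3965. For Cenpa it was -0.0111 with DMSO and 0.01 with GW3965. For Kif20a it was 0.1248 with DMSO and -0.07 with GW3965.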

How the results depend on the processing

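Between the letters, median centring gave 2401 genes higher, a median of 0.71 over the members and -0.0936 for Kif20a. The normexp correction gave 4076 lower, a median of 0.58 and -0.0030 for Kif11. With no filter, 1197 genes were higher and 883 lower, and 16 members rose. Scaling to the spike-in controls gave 606 lower, a median of 1.12, 0.29 for Cenpa and 0.26 for Esco2. With 1 array left out, 1179 to 3369 genes were higher and 931 to 2117 lower, and 17 to 25 members rose, with medians of 0.79 to 0.87. Kif20a then ranged from -0.17 to 0.22, Cenpa from -0.0662 to 0.0647 and Esco2 from -0.48 to 0.42. For GW3965 against DMSO, median centring gave a median of -0.18, and scaling to the spike-in controls gave 29 genes higher, 10 lower, a median of 0.0498, 0.0544 for Cenpa and 0.0771 for Top2a. With the replicate block, 10 genes were higher and 5 lower, with 0 members among them and an adjusted p of 0.33 for Esco2. The labels do not say that the letter pairs the samples. The b minus a differences of the treatments correlated at 0.72 across genes. With 1 array left out, 0 to 1 genes were lower (1 without DMSO replicate b), and the median went from -0.46 to 0.31. Mki67 ranged from -1.11 to 0.64, Top2a from -1.13 to 0.94, Pcna from -0.42 to 0.039, Ccnd1 from -0.0264 to 0.25, Cdk1 from -0.79 to 0.25, Ccnb1 from -1.10 to 0.58 and Mcm2 from -0.43 to 0.57. An array left alone in its group is assumed to vary like the others. The cause of these changes was not tested.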
